A study of Homo sapiens with 60 samples.

Results

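The untreated PC9 lung cancer line was compared with 3 other EGFR-mutant lines, to describe what sets PC9 apart before any drug is given. The members are the 3 PC9 libraries under DMSO, of 12 DMSO libraries and 60 libraries in all, and each gene in them was set against the mean of the group means of HCC827, H1975 and HCC2935, so that each of these lines weighs the same. All 4 lines come from non-small cell lung cancers that carry a mutated EGFR, and in them the genotype of EGFR and the line cannot be told apart. In all of these groups the parental cells had been kept without drug for 21 days and then received DMSO, the solvent control, for 24 h, and each group holds 3 biological replicates. The series also holds the same lines after 500 nM osimertinib, an EGFR inhibitor, for 24 h (acute), after 500 nM for 21 days (drug-tolerant persisters, DTP), and after a short (24 h) or a long washout that followed those 21 days. These 48 libraries were used here only to see whether a difference between PC9 and the other lines was met again. Each group is a single established line, so that a difference described here is one between these 4 lines, and p-values measure the spread between cultures of a line and not between tumours.

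EGFR is a receptor tyrosine kinase that drives growth through the RAS and ERK cascade once its kinase domain is mutated, and lung cancers with such mutations are mostly adenocarcinomas, tumours of glandular cells that often keep NKX2-1, the transcription factor of the lung alveolus. Established lines differ from each other by the cell their tumour arose from, by gains and losses of chromosomes, by genes silenced in culture or in the tumour, and by pathways such as NRF2, which switches on antioxidant enzymes, and interferon signalling, which switches on antiviral and antigen-presenting genes. Cancer-testis genes, such as the MAGE-A family on the X chromosome, are normally read in germ cells and silenced elsewhere by DNA methylation.

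Libraries held 36.9 to 47.1 M estimated counts in PC9, 42.4 to 47.5 M in H1975, 19.7 to 22.5 M in HCC827 and 20.4 to 24.0 M in HCC2935, so that depth and line went together. Levels are given as counts per M counts of the library (CPM) after TMM scaling, where 3 counts in a library correspond, on average over replicates, to 0.0817 CPM in PC9, 0.144 in HCC827, 0.0622 in H1975 and 0.133 in HCC2935. Each of the 60 libraries lay nearest to its own line within its arm. Under DMSO, replicate 2 of H1975 stood apart from the other two H1975 libraries, with squared differences of 84.2 and 51.4 times counting error against 20.1 between replicates 1 and 3. So did replicate 2 of HCC827, with 31.0 and 50.6 against 22.2, and replicate 3 of HCC2935, with 21.2 and 24.1 against 8.97. In place of 10260 genes, 10309 were called without the first, 10615 without the second and 10226 without the third.

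The epithelial origin was plain in PC9, while the lung markers were nearly absent. KRT8, a keratin of simple epithelia, stood at 4073, 3924 and 3812 CPM in the PC9 libraries, and EPCAM, an epithelial adhesion molecule, at a mean of 558 CPM. Of 9 markers of lung adenocarcinoma epithelium, NKX2-1 (mean 0.714 CPM) and NAPSA (0.392 CPM), an alveolar protease, were under 1 CPM in PC9 and none was in the other lines. Markers of blood cells summed to 4.26 to 5.29 CPM in PC9, those of fibroblasts to 17.7 to 24.6 CPM, and those of neuroendocrine cells to 0.896 to 0.973 CPM, with PTPRC at 0.00954, LUM at 0 and INSM1 at 0. The first sum was almost all ITGAM (4.27 CPM), and the second almost all COL1A1 (21.6 CPM). Their part in the results was not tested. Endothelial markers summed to 24.7 to 44.6 CPM in PC9, against 0.990 to 2.11 in HCC827, 3.02 to 6.03 in H1975 and 30.7 to 37.0 in HCC2935, and came almost all from PECAM1 and CDH5, with VWF at 0.245 and KDR at 0.239 CPM. In RNA from whole cultures, fewer cells that read a gene and less RNA per cell cannot be told apart.

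The difference between PC9 and the other lines covered most of the genes that could be tested. In edgeR's quasi-likelihood test, 10260 of 15214 genes (67.4%) were called at an adjusted p under 0.05, 5323 (35%) higher and 4937 (32.5%) lower in PC9. A difference of at least 2-fold was met by 4623 genes (30.4%), of which 2091 (13.7%) were higher and 2532 (16.6%) lower. In 2467 genes (16.2%) all 3 PC9 libraries lay above all 9 others, and in 2096 (13.8%) they lay below. The balance of higher and lower depended on scaling, since PC9 had TMM factors of 0.900 to 0.915 and H1975 of 1.09. With library size alone the median log2 difference over all genes moved from -0.01 to -0.20, and 40.6% of calls were higher in place of 51.9%. On the deposited log2 TPM values the median was -0.28, and 34.7% of calls were higher. Against a single line, 9730 genes (64%) were called against HCC827, 9807 (64.5%) against H1975 and 10510 (69.1%) against HCC2935. The 3 counts share the PC9 libraries.

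The genes that rose most in PC9 were cancer-testis genes on the X chromosome. By the rule for named genes, 10 of the 12 largest positive differences were VCX3B, VCX, VCX3A, MAGEA3, MAGEA2B, MAGEA12, MAGEA4, MAGEA6, CSAG1 and PASD1, all on X. MAGEA12, a member of the MAGE-A family of tumour antigens (chrX:152733779-152737669 in GENCODE release 29, GRCh38), stood at 108, 104 and 101 CPM in PC9 and at 0 counts in all 9 other libraries. With 3 counts per library as the limit for a 0, PC9 was at least 987-fold higher (edgeR adjusted p = 6.36e-10). MAGEA2B, at 145, 119 and 123 CPM in PC9, was also at 0 in all 9 others, which gives at least 1217-fold. MAGEA2, which shares nearly all of its sequence with MAGEA2B, was listed at a mean of 1.34 CPM in PC9, and the split of reads between these copies is uncertain.

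MAGEA3 stood at 501, 454 and 436 CPM in PC9, at 0.360, 0.0943 and 0.0450 CPM in HCC827 and at 0 in H1975 and HCC2935. MAGEA6 had 198, 178 and 180 CPM in PC9 and at most 0.360 CPM elsewhere. In these genes PC9 lay far above every other library, and HCC827 was the only other line with any count. VCX3B, one of the variably charged X proteins of male germ cells, had 274, 265 and 228 CPM in PC9, and the single library above 0 elsewhere was a replicate of H1975 at 0.0214 CPM. Per length, VCX3B (402 TPM), MAGEA3 (368 TPM) and MAGEA4 (235 TPM) were of the same order in PC9 as EGFR (234 TPM). The split of reads between copies may be uncertain here too, among the VCX genes and between MAGEA3 and MAGEA6.

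The promoters of 2 of these genes are shown because they share so much sequence, and because CG pairs, the bases that carry DNA methylation, are their best known feature. They are the 250 bases before the RefSeq start in GRCh38.p14 (MAGEA3 chrX:152698544-152698793, plus strand, and MAGEA12 chrX:152733507-152733756, plus strand), with each CG in capitals.
MAGEA3: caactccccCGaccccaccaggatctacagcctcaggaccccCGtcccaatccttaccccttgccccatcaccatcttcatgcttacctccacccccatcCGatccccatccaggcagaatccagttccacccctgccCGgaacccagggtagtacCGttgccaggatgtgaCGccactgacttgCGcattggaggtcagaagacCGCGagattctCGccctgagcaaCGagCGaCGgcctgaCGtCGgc
MAGEA12: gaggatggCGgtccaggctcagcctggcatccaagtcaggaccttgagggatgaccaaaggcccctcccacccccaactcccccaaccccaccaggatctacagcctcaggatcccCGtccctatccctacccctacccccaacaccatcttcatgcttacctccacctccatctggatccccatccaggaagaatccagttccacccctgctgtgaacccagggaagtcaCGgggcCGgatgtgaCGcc
MAGEA3 held 15 CG pairs in these bases and MAGEA12 5. Over the whole 300-base window, which ends 50 bases after the start, the MAGEA3 and MAGEA6 promoters were identical at 300 of 300 bases, and those of MAGEA3 and MAGEA12 at 203 of 225 aligned bases (90.2%). The 10 cancer-testis genes that were higher in PC9 and had a promoter in the table held a median of 15 CG pairs, against 25 over the promoters of 11865 tested genes. No methylation was measured, and nothing on it can be read from these letters.

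Other cancer-testis genes were not read in PC9, so that the group did not move as a whole. Of 35 listed, 18 could be tested, and 11 were higher in PC9, 2 lower and 5 not called, beside 35% of all genes higher and 32.5% lower. The median log2 difference was 8.70, or 5.52 with genes at 0 put at 3 counts, and ran from 1.25 without a filter, which adds members near 0 in every line, to 11.76 without HCC2935. On log2 TPM 11 were higher and 6 lower. In the 11, all 3 PC9 libraries lay above all 9 others, beside 16.2% of all genes. Lower in PC9 were PRAME (mean 0.0526 CPM, against 10.6 in HCC827, 69.7 in H1975 and 0.0768 in HCC2935) and BRDT, a bromodomain protein of the testis (0.0398 CPM against 4.91 in HCC827). CT45A1 stood at a mean of 99.8 CPM in H1975 and at 0 in PC9, HCC827 and HCC2935. A member passes the filter on low counts through the line where it is high, so these counts describe the members and test nothing about the group.

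The remaining 2 of the 12 largest positive differences were secreted inhibitors of proteases. TIMP3, an inhibitor of metalloproteinases bound to the matrix, had 1011, 1039 and 885 CPM in PC9, 12.3, 13.4 and 8.89 CPM in HCC2935, at most 0.189 CPM in HCC827 and 0 in H1975. PI3, which encodes the elastase inhibitor elafin, had 133, 180 and 142 CPM in PC9 and at most 0.0922 CPM in the other lines. PC9 was above every other library in both (TIMP3: edgeR adjusted p = 7.26e-13, PI3: adjusted p = 8.78e-14).

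**Figure D1:**
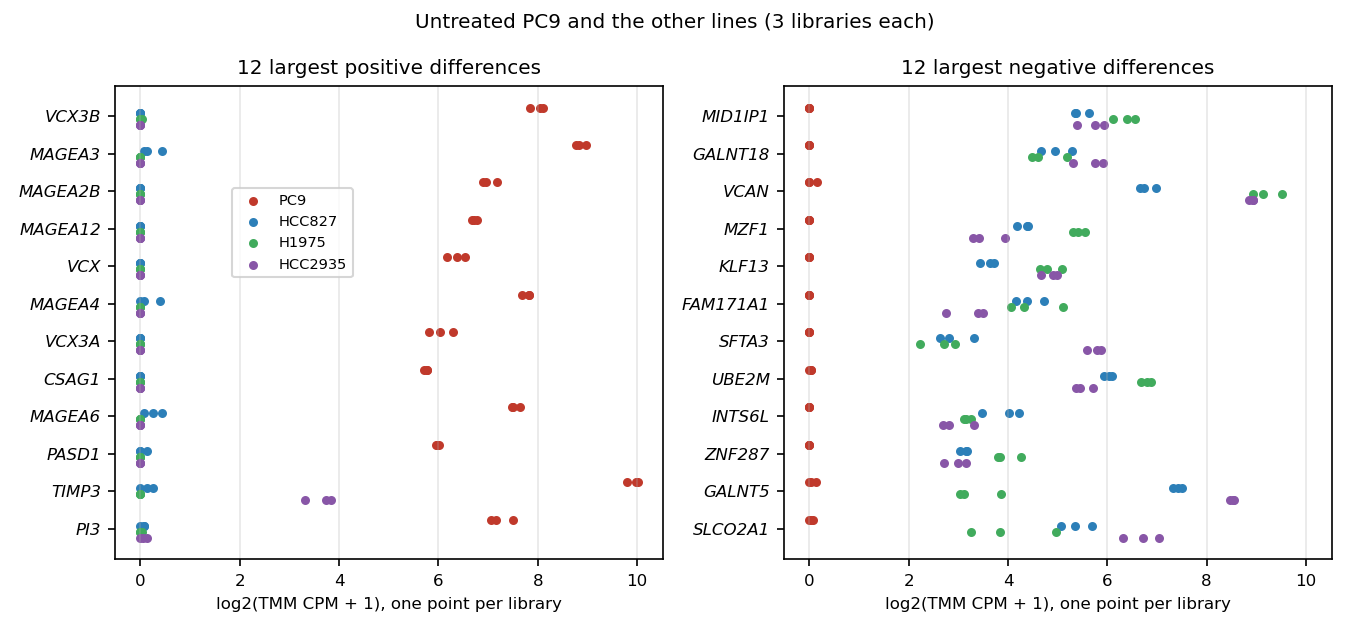
Levels of the 12 genes with the largest positive and the 12 with the largest negative difference by the rule for named genes, as log2 of TMM CPM + 1 (x axis), with 1 point per library and a colour per line. On the left the PC9 points lie at 51.4 CPM or more with nearly all others at or near 0, apart from TIMP3 in HCC2935, and on the right the PC9 points lie at 0.119 CPM or less.

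Going the other way, some genes that every other line read were silent in PC9. Among the named genes at 0 counts in PC9, MID1IP1, a regulator of fatty acid synthesis, had the highest bound. It had 0 counts in the 3 PC9 libraries and 39.9 to 93.7 CPM in the 9 others, which makes PC9 at least 692-fold lower (edgeR adjusted p = 1.24e-10). GALNT18, a transferase that starts O-linked sugar chains, had 0 counts in PC9 and 21.2 to 59.1 CPM elsewhere. KLF13, a zinc finger transcription factor, had 0 counts in PC9 and 9.90 to 32.8 CPM elsewhere. Also at 0 in the 3 PC9 libraries were FAM171A1, ZNF287, INTS6L and SFTA3. In each of these genes the groups were apart by the whole range. VCAN, the matrix proteoglycan versican, had 0.119, 0 and 0 CPM in PC9, 100 to 125 CPM in HCC827, 485 to 732 in H1975 and 461 to 488 in HCC2935.

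UBE2M, the enzyme that loads the ubiquitin-like protein NEDD8 onto cullins, is needed by most dividing cells, and stood at 0.0299, 0 and 0.0286 CPM in PC9. In HCC827 it had 60.5 to 67.3 CPM, in H1975 102 to 117 and in HCC2935 40.3 to 51.7, so that PC9 was below all others (edgeR adjusted p = 6.80e-13). Its neighbour MZF1, a zinc finger transcription factor, had 0 counts in PC9 and 8.85 to 45.9 CPM elsewhere. Both lie near the end of chromosome 19, UBE2M at chr19:58555712-58558960 and MZF1 at chr19:58561931-58573575 (GENCODE release 29, GRCh38).

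By count, 49 genes had under 3 counts in every PC9 library and at least 1 CPM in each other line. The same rule gave 10 for HCC827, 21 for H1975 and 11 for HCC2935. Some genes, among them those named only by a clone, LINC number or open reading frame, were left out of this count and of the reverse one below. The 49 held 3 runs of genes next to each other in the order of genes with at least 1 CPM in each other line, with genes below that level skipped. These are UBE2M with MZF1, MID1IP1 with DYNLT3 on X, and SPATA6 with TRABD2B on chromosome 1. The last 2 pairs are not close, since DYNLT3 ends at chrX:37847637 and MID1IP1 starts at chrX:38801432, and TRABD2B ends at chr1:47996895 and SPATA6 starts at chr1:48295372. In the 12 PC9 libraries of the other arms, which played no part in the choice, 15 of the 49 again had under 3 counts in every library. Of these, EIF4E3, FAM171A1, INTS6L, MSX2, MZF1, SLC22A3 and ZNF454 had 0 counts in all 15 PC9 libraries. UBE2M reached 4 counts in 1 of the 12. Others were read in PC9 under other treatments, among them XAF1, an interferon-stimulated gene, which reached 14.3 CPM. The reverse rule, at least 1 CPM in PC9 and under 3 counts in each of the 9 other libraries, gave 33 genes (14 for HCC827, 18 for H1975 and 39 for HCC2935). Of the 33, 16 lie on X, and 28 had at least 1 CPM in each of the 12 other PC9 libraries.

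The targets of NRF2, the transcription factor that answers oxidative stress, were higher in PC9 almost as a block. Of 27 tested, 24 were called higher and 1 lower, beside 35% and 32.5% of all genes, the median log2 difference was 1.31 beside -0.01, and in 22 of them all 3 PC9 libraries lay above all 9 others, beside 16.2% of all genes. The aldo-keto reductases, which reduce aldehydes, ketones and steroids, led the list. AKR1C2 had 119, 108 and 82.3 CPM in PC9 and between 0.308 and 1.15 CPM in the 9 others, a log2 difference of 7.25 ± 0.15 (SE; edgeR adjusted p = 6.80e-13). AKR1C3 had 258, 228 and 228 CPM in PC9 and 3.23 to 8.78 CPM elsewhere, a log2 difference of 5.62 ± 0.16 (adjusted p = 9.63e-12). In neither did the groups come near each other. AKR1C1 (5.94 ± 0.29) and AKR1B10 (4.19 ± 0.25) rose as well, and reads of AKR1C1 and AKR1C2, which are close copies, may have been divided unevenly.

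The rise also took in enzymes that make glutathione, the cell's main thiol, and that supply NADPH. GCLM, the regulatory subunit of the enzyme that limits glutathione synthesis, had 251, 237 and 244 CPM in PC9 and 34.7 to 103 CPM elsewhere, and its log2 difference was 2.23 ± 0.10. Its catalytic partner GCLC differed by 2.01 ± 0.17, the cystine transporter SLC7A11 by 1.63 ± 0.12 and thioredoxin reductase TXNRD1 by 2.00 ± 0.07. The pentose phosphate enzymes PGD (0.99 ± 0.07), TKT (1.19 ± 0.07) and TALDO1 (0.97 ± 0.06) all rose. NQO1, a quinone reductase often used to read NRF2 activity, had 633, 568 and 505 CPM in PC9 and 279 to 495 CPM elsewhere. Thus its groups were apart, but by little, with a log2 difference of 0.77 ± 0.07. HMOX1, heme oxygenase, was the member that fell (-1.13 ± 0.12), with 14.3 to 20.1 CPM in PC9, 15.2 to 17.5 in HCC827, 128 to 168 in H1975 and 20.9 to 23.1 in HCC2935, so that H1975 alone was far above PC9. OSGIN1 and UGDH were not called. KEAP1, the adaptor that marks NRF2 for degradation, was higher in PC9, at 190, 186 and 151 CPM, than in HCC827 and HCC2935 (52.0 to 78.5 CPM), but overlapped with H1975 (118 to 167 CPM), and its log2 difference was 1.08 ± 0.12 (edgeR adjusted p = 2.14e-06).

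The site that NRF2 binds, the antioxidant response element, is written here as TGACNNNGC, and was searched on both strands of the 300-base promoters. It was found in 6 of 19 list members with a promoter in the table (31.6%), all 6 of them among the 17 that rose, and in 14.5% of the promoters of 11865 tested genes. The 2 members with the largest differences that hold it before the start are shown, with the match in capitals, GCLM at chr1:93909431-93909680, minus strand, and TXNRD1 at chr12:104215529-104215778, plus strand (RefSeq, GRCh38.p14).
GCLM: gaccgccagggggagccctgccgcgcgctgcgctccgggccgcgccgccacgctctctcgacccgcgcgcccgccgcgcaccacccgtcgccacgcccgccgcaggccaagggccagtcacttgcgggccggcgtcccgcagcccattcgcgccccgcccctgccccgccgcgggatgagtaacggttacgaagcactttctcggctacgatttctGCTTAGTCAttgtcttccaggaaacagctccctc
TXNRD1: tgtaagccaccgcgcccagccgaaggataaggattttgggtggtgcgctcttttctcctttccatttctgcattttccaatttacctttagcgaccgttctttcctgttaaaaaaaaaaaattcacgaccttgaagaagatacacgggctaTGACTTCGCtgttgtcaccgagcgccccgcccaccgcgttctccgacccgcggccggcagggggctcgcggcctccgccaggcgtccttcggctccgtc
A match is a description of the letters, and binding was not measured.

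Interferon-stimulated genes were lower in untreated PC9, again nearly without exception. Of 30 tested, none was called higher and 29 were called lower, beside 35% and 32.5% of all genes, with a median log2 difference of -2.48, and in 24 all 3 PC9 libraries lay below all 9 others (13.8% of all genes). IFI44, an antiviral protein, had 0.119, 0.255 and 0.0286 CPM in PC9, 16.6 to 28.1 in HCC827, 33.7 to 75.9 in H1975 and 8.49 to 14.8 in HCC2935, and its log2 difference was -7.40 ± 0.47 (edgeR adjusted p = 1.40e-08). IFI27, a small mitochondrial protein, had 0.0299, 0 and 0.143 CPM in PC9 and 9.38 to 85.0 CPM elsewhere. PC9 lay below all other libraries in both genes. Among the members that carry the signal, STAT2 differed by -1.31 ± 0.17 and IRF9 by -1.84 ± 0.28. The RNA sensors DDX58 (-2.08 ± 0.23) and IFIH1 (-2.85 ± 0.53) fell too. ISG15, the member not called, was at most 1.07 CPM in all 12 libraries, with a log2 difference of -0.36 ± 0.58.

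The interferon-stimulated response element, searched on both strands as TTTC, any 2 bases and TTTC, was present in 14 of 22 list members with a promoter (63.6%), 13 of them among the 21 that fell, and in 2.91% of the promoters of 11865 tested genes. It is shown in capitals for the 2 members with the largest differences that hold it before the start, IFI27 at chr14:94110486-94110735, plus strand, and IFI44 at chr1:78649539-78649788, plus strand (RefSeq, GRCh38.p14).
IFI27: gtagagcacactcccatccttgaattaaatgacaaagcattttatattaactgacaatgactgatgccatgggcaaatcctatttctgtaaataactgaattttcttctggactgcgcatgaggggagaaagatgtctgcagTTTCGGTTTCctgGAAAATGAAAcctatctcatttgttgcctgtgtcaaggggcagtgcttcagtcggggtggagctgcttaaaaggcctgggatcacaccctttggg
IFI44: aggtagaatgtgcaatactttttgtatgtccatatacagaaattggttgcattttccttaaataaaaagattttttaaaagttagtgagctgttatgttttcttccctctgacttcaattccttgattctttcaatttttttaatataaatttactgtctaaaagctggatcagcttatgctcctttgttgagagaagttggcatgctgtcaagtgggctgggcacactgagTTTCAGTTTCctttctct
IFI27 held 2 matches and IFI44 1.

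RNA of the genes for antigen presentation on class I molecules, which display peptides to T cells, was mostly lower in PC9 as well. Of 16 tested, 14 fell and 1 rose, beside 32.5% and 35% of all genes, with a median log2 difference of -1.36, and in 9 PC9 lay below all other libraries (13.8% of all genes). Without HCC2935 12 fell and 1 rose with a median of -0.80, and without HCC827 the median was -1.92. HLA-B had 12.4, 14.1 and 20.9 CPM in PC9, 60.4 to 90.4 in HCC827, 166 to 222 in H1975 and 806 to 1077 in HCC2935. PC9 was thus the lowest line and HCC2935 the highest, and the log2 difference was -3.91 ± 0.20 (edgeR adjusted p = 1.90e-09). The shared light chain B2M differed by -1.57 ± 0.09 and the peptide transporter TAP1 by -1.63 ± 0.09. Reads of HLA genes map between copies and alleles with difficulty, so their levels are uncertain. The member that rose was CALR, a chaperone of the endoplasmic reticulum (0.23 ± 0.08). Of 12 class II genes tested, 11 fell and none rose, beside 32.5% and 35% of all genes, and the median log2 difference was -5.32, or -2.21 with genes at 0 put at 3 counts and -3.96 without replicate 3 of HCC827. Without HCC2935 8 class II genes fell, with a median of -2.12. Among those with at least 10 counts in every library only 2 fell, with a median of -1.68. CD74, the invariant chain, stood at a mean of 0.255 CPM in PC9, 1.12 in HCC827, 79.1 in H1975 and 12.5 in HCC2935.

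Secreted inflammatory genes followed the same direction. Of 25 chemokines and interleukins tested, 18 fell and 5 rose, beside 32.5% and 35% of all genes, with a median log2 difference of -2.96, or -2.09 with genes at 0 put at 3 counts and -2.51 without replicate 3 of HCC2935. Among the members with at least 10 counts in every library 6 fell and 5 rose, with a median of -0.90. CX3CL1, a chemokine held on the membrane, had at most 0.0299 CPM in PC9 and 5.42 to 46.0 CPM elsewhere (-9.42 ± 0.40). CXCL5, which draws neutrophils, was at 0 counts in PC9 and high in HCC827 alone, at 59.2 to 98.0 CPM. CXCL8 had 0.807, 0.232 and 0.458 CPM in PC9 and at least 1.18 CPM in each other library. CXCL16, IL18, LIF, CSF1 and IL1RN were the 5 that rose.

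**Figure D2:**
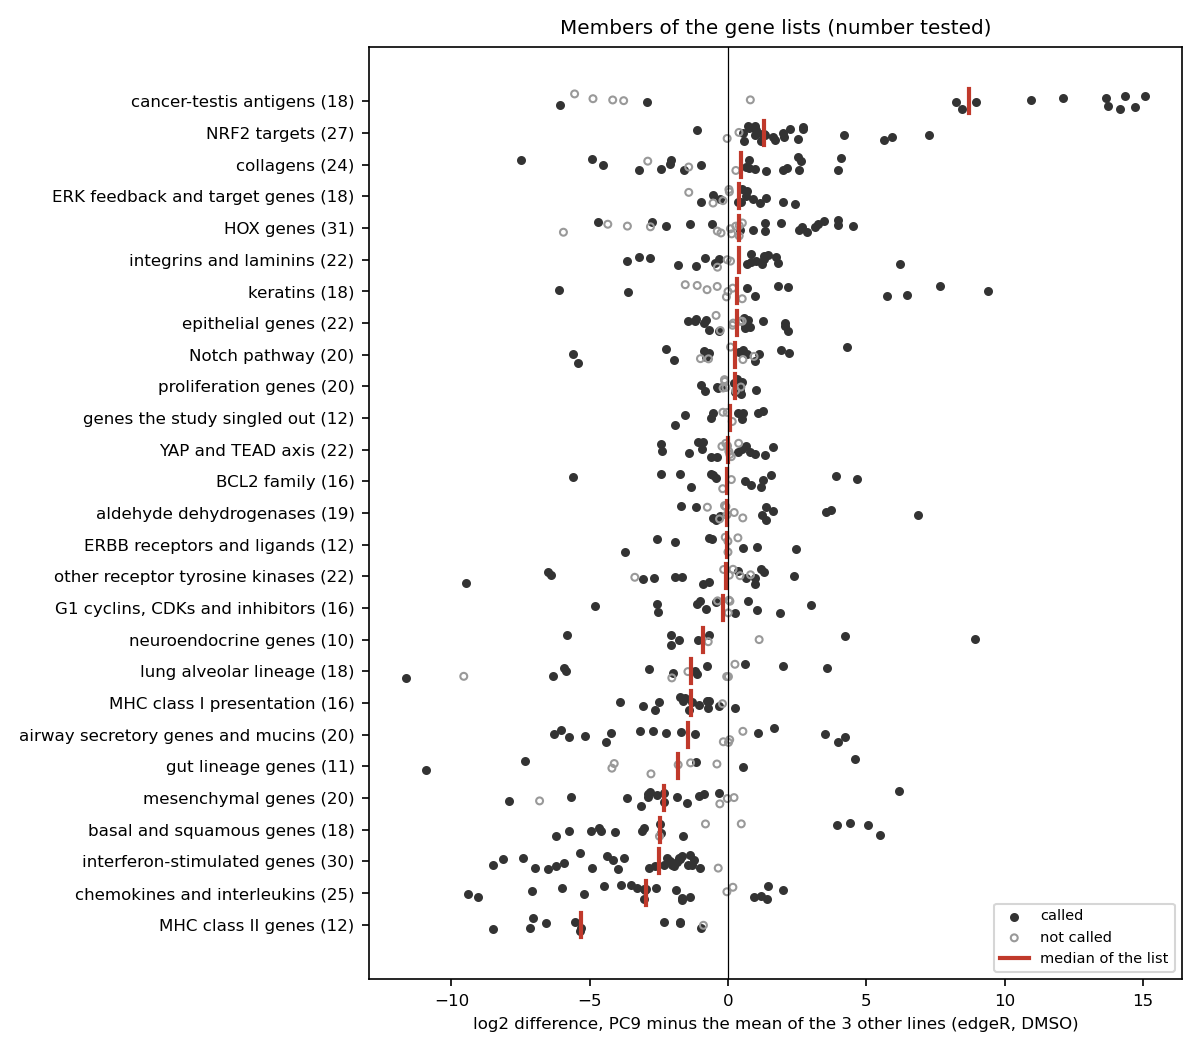
Log2 difference of PC9 from the mean of the 3 other lines under DMSO (x axis) for each tested member of the gene lists (y axis, number tested in brackets). Filled points were called at an adjusted p under 0.05, open points were not, and the red bar is the list's median, which is 1.31 for NRF2 targets and -2.48 for interferon-stimulated genes.

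Among genes of the lung alveolus, 9 of 18 tested fell in PC9, 3 rose and 6 were not called, beside 32.5% and 35% of all genes, with a median log2 difference of -1.33. Among the members with at least 10 counts in every library 5 fell and 2 rose, with a median of -0.82. Without HCC2935, 6 genes of this lineage fell and 5 rose (median -1.14), and without H1975 13 fell and 1 rose (median -2.59). NKX2-1, the transcription factor of this lineage, had 0.896, 0.673 and 0.572 CPM in PC9, 52.6 to 72.1 in HCC827, 16.5 to 27.4 in H1975 and 136 to 150 in HCC2935, with a log2 difference of -6.33 ± 0.23 (edgeR adjusted p = 6.63e-11). SFTA3, the gene next to it on chromosome 14, was at 0 counts in PC9 and at 3.69 CPM or more elsewhere. NAPSA, a target of NKX2-1, had at most 0.533 CPM in PC9, but H1975 was close, at 1.24 to 1.51 CPM, while HCC827 and HCC2935 had 28.9 to 218 CPM. FOXA2, a transcription factor of endoderm, was at a mean of 0.122 CPM in PC9 and at 2.88 CPM or more elsewhere. Its relative FOXA1 was read in PC9 (52.8 to 60.9 CPM) as in HCC827 (40.4 to 59.7 CPM). As a mean of log2(CPM + 1) over the list, PC9 (2.07 ± 0.02, SD, n = 3) was close to H1975 (2.34 ± 0.10) and further from HCC827 (3.38 ± 0.15) and HCC2935 (4.59 ± 0.04). None of the 5 surfactant genes listed had a mean above 0.932 CPM in any line.

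Mucins and other secreted airway proteins split. MUC1 had 2.00, 4.59 and 3.06 CPM in PC9 and at least 11.8 CPM in each other library. MUC16, MUC5B and MUC5AC were lower too (log2 differences of -2.26, -2.73 and -5.19), whereas the protease inhibitor SLPI (3.96), WFDC2 (4.24) and lipocalin LCN2 (3.50) were higher. In total 11 of 20 fell and 5 rose, beside 32.5% and 35% of all genes, with a median log2 difference of -1.44, but without HCC2935 7 fell and 7 rose with a median of -0.08. Of 11 genes of the gut lineage 3 fell and 2 rose (median -1.81), beside 32.5% and 35% of all genes, and without HCC827 1 fell and 2 rose (median 0.00). CPS1, the first enzyme of the urea cycle, had 33.2, 31.9 and 26.9 CPM in PC9, above H1975 (11.7 to 24.1 CPM) and the other lines (at most 0.766 CPM).

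Some keratins of stratified epithelia were read in PC9 and hardly in the other lines, while TP63, the master transcription factor of basal cells, was low. KRT5, the keratin of basal cells, had 75.4, 58.7 and 86.1 CPM in PC9 and at most 0.462 CPM in all 9 others (9.41 ± 0.30, edgeR adjusted p = 2.00e-11). KRT6B (19.9 to 32.0 CPM, against at most 0.922) and KRT23 (5.41 to 15.4 CPM, against at most 0.646) showed the same pattern. TP63 was at a mean of 0.400 CPM in PC9, 1.49 in HCC827, 8.08 in H1975 and 28.1 in HCC2935. KRT14, the usual partner of KRT5, was at 0.0372 CPM, and KRT17 at 0.0673 CPM. Of 18 keratins 8 rose and 2 fell, beside 35% and 32.5% of all genes, whereas 8 rose and 7 fell on log2 TPM and 6 and 6 without H1975. The median log2 difference of 0.34 went to 0.66 without replicate 3 of HCC827, to -0.16 without H1975 and to 1.35 without HCC2935. The kallikreins KLK5 (190, 214 and 240 CPM in PC9, at most 54.2 elsewhere) and KLK7 (13.1 to 14.1 CPM, at most 0.974 elsewhere), proteases of the skin, were the other basal or squamous genes with PC9 above all others, while 11 of 18 in that list fell and 4 rose, beside 32.5% and 35% of all genes, and the median was -2.47. This rested in large part on HCC2935, without which 7 fell and 5 rose with a median of -0.83. Among the members with at least 10 counts in every library 2 fell and 2 rose, with a median of 0.93.

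Mesenchymal genes were mostly lower in PC9. Of 20 tested, 15 fell and 1 rose, beside 32.5% and 35% of all genes, with a median log2 difference of -2.32, or -1.40 without H1975. TNC, the matrix protein tenascin-C, had 16.7, 7.00 and 12.8 CPM in PC9 and 393 to 929 CPM elsewhere (-5.67 ± 0.26, edgeR adjusted p = 5.99e-10). SPARC had at most 0.116 CPM in PC9 and HCC827 no more than 0.770, against 295 to 345 CPM in H1975 and 7.93 to 17.4 CPM in HCC2935. VIM, the intermediate filament vimentin, had 19.6 to 31.3 CPM in PC9, which overlapped with HCC2935 (17.9 to 35.6 CPM), and 1205 to 2360 CPM in H1975. Hence the order among lines differed from gene to gene, and H1975 was the highest for both. TWIST1, a transcription factor of mesenchymal cells, was the gene that rose, with a mean of 1.15 CPM in PC9 and of at most 0.0308 CPM in each other line. Other genes with at least 100 CPM in each other line and far less in PC9 were ANXA1, annexin A1, with 34.3, 28.7 and 32.2 CPM against 714 to 943, AHNAK2 with 10.8 to 23.9 CPM against 160 to 1080, CYB5B with 9.29 to 11.5 CPM against 106 to 180, and EEF1A2 with 42.8 to 48.3 CPM against 303 to 635.

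Epithelial adhesion and junction genes were balanced. Of 22 tested, 9 rose and 7 fell, beside 35% and 32.5% of all genes, with a median log2 difference of 0.31. The counts turned to 7 and 9 with library size alone, to 6 and 9 on log2 TPM and to 4 and 11 without H1975. RAB25 had 78.4, 81.0 and 78.9 CPM in PC9, 22.9 to 40.1 in HCC827, 1.43 on average in H1975 and 108 to 119 in HCC2935, so PC9 was second to HCC2935. OVOL1 (29.6 to 34.0 CPM) and GRHL2 (11.6 to 14.6 CPM), transcription factors that hold the epithelial state, were higher than in every other library. CDH1, E-cadherin, was lower in PC9 (mean 324 CPM) than in HCC827 (1046) and HCC2935 (1432).

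EGFR itself lay between the lines. It had 1813, 1764 and 1978 CPM in PC9, 7535 to 9882 in HCC827, 373 to 407 in H1975 and 557 to 633 in HCC2935. None of these ranges overlapped, and the order was HCC827, PC9, HCC2935 and H1975. The log2 difference from the mean of the 3 lines was 0.55 ± 0.08, and its sign depended on H1975, without which it was -0.30. Of 12 receptors and ligands of the EGFR family, 3 were higher and 5 lower in PC9, beside 35% and 32.5% of all genes. The list's median went from -0.06 to -0.59 without replicate 2 of PC9. AREG, the ligand amphiregulin, had 3.14, 2.69 and 3.12 CPM in PC9, 136 to 150 in HCC827, 9.24 to 21.1 in H1975 and 27.6 to 30.8 in HCC2935 (-3.73 ± 0.22, edgeR adjusted p = 7.30e-09). HBEGF, another ligand of EGFR, went the other way, with 59.1, 47.1 and 72.6 CPM in PC9 and 4.01 to 17.8 CPM elsewhere (2.46 ± 0.26, adjusted p = 2.14e-06). Thus PC9 was below every other library for AREG and above for HBEGF. TGFA was higher in PC9 (127 to 142 CPM) than in HCC827 and H1975 and lower than in HCC2935 (210 to 226 CPM), and EREG was far higher in HCC827 (304 to 330 CPM) than in PC9 (5.03 to 6.92 CPM).

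Among other receptor tyrosine kinases, 7 of 22 were higher and 9 lower in PC9, beside 35% and 32.5% of all genes. The median went from -0.06 to -0.68 without replicate 1 of PC9. MET, the receptor of hepatocyte growth factor, had 150, 175 and 162 CPM in PC9 and 411 to 1116 CPM elsewhere (-1.93 ± 0.08, edgeR adjusted p = 3.77e-10). AXL, a receptor often linked to drug tolerance, had 236, 209 and 210 CPM in PC9, 88.0 to 191 in H1975 and at most 34.4 in HCC827 and HCC2935 (2.39 ± 0.21). PC9 was lowest for MET and highest for AXL, with H1975 nearest to it in AXL. ROS1 was at 0 counts in PC9, and FGFR2 at no more than 0.0696 CPM.

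Of 18 genes induced by ERK, 10 rose and 3 fell in PC9, beside 35% and 32.5% of all genes, whereas 7 rose and 6 fell on log2 TPM. The median log2 difference was 0.41, which came to 0.08 without H1975 and 0.81 without HCC2935. DUSP4, a phosphatase that switches ERK off, had 243, 238 and 239 CPM in PC9, 14.5 to 20.2 in HCC827, 35.6 to 44.4 in H1975 and 126 to 154 in HCC2935 (2.40 ± 0.09). ETV4, an ETS transcription factor, had 121, 129 and 124 CPM in PC9 and 22.5 to 46.6 CPM elsewhere (1.98 ± 0.08, edgeR adjusted p = 2.06e-10). PC9 was above all others in both. DUSP6 was higher in HCC2935 (mean 156 CPM) than in PC9 (48.4 CPM).

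Other gene groups showed single members that set PC9 apart rather than a common direction. Each count here stands beside 35% of all genes called higher and 32.5% called lower. UCHL1, a deubiquitinase of neurons, had 659, 611 and 590 CPM in PC9 and at most 3.50 CPM elsewhere (8.93 ± 0.08, edgeR adjusted p = 4.69e-17), while 6 of 10 neuroendocrine genes fell and 2 rose (median -0.90). Of 19 aldehyde dehydrogenases 7 rose and 5 fell (median -0.04). ALDH1A3, which makes retinoic acid, had 2150, 2034 and 1973 CPM in PC9, 379 to 610 in HCC2935, 199 to 404 in HCC827 and at most 33.0 in H1975, and ALDH3A1 had 64.5 to 88.6 CPM in PC9, 43.1 to 48.0 in HCC2935 and at most 0.360 in HCC827 and H1975. PC9 was thus the highest line for both. Of 24 collagens 12 rose and 9 fell (median 0.47), with COL6A1 at 771, 599 and 632 CPM in PC9 and at most 146 CPM elsewhere. Of 22 integrins and laminins 11 rose and 8 fell (median 0.38), with LAMA4 at 152 to 170 CPM in PC9 and at most 8.71 CPM elsewhere. Of 31 HOX genes, which mark position along the body axis, 14 rose and 5 fell (median 0.40), beside 35% and 32.5% of all genes, but 11 rose and 10 fell on log2 TPM, and 8 rose and 9 fell without H1975 (median -0.03). HOXC13 stood at a mean of 16.4 CPM in PC9 and at most 4.36 CPM elsewhere.

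The remaining groups had members in both directions, beside 35% of all genes called higher and 32.5% called lower. The BCL2 family had 7 of 16 members higher and 7 lower (median -0.04), with BCL2 at 11.1 ± 1.06 CPM (SD, n = 3) in PC9 (at most 4.49 elsewhere) and the death-promoting PMAIP1 at 7.58 to 9.84 CPM (at least 33.5 elsewhere). The Notch pathway had 8 of 20 higher and 7 lower (median 0.24), the YAP and TEAD axis 7 of 22 higher and 8 lower (median 0.00), and cyclins, CDKs and their inhibitors 5 of 16 higher and 7 lower (median -0.19). Of 20 proliferation genes 9 rose and 5 fell (median 0.23), with CCNA2 higher (1.01 ± 0.07) and TOP2A lower (-0.99 ± 0.09), and this count turned to 5 and 9 with library size alone and to 3 and 9 on log2 TPM. The counts also turned for aldehyde dehydrogenases, to 7 higher and 8 lower, and for the Notch pathway, to 5 and 7, both with library size alone and on log2 TPM, and for collagens, to 9 and 10, on log2 TPM. Without H1975 those of integrins and laminins turned to 8 higher and 9 lower. CDKN2A, which encodes a CDK inhibitor, was at 90.4 to 100 CPM in PC9, below HCC827 (177 to 231 CPM), above H1975 (14.7 to 28.8 CPM) and above HCC2935 (at most 0.447 CPM).

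Among 12 genes the study took to experiments or discussed, 5 were higher in PC9, 4 lower and 3 not called (median 0.06), beside 35% of all genes higher and 32.5% lower. The counts turned to 4 and 5 with library size alone and to 4 and 6 on log2 TPM. The study's choice drew on RNA-seq of lines treated with osimertinib or DMSO among other evidence, so these counts are not independent of such data. BCL6, a transcriptional repressor, had 42.5 ± 8.10 CPM (SD, n = 3) in PC9 and 8.06 to 28.9 CPM elsewhere (1.28 ± 0.15). SRC, a kinase of the membrane, had 30.4, 34.6 and 26.1 CPM in PC9, which overlapped with H1975 (31.4 to 39.8 CPM), and 116 to 179 CPM in HCC827 and HCC2935 (-1.54 ± 0.11). NF1, a brake on RAS, differed by -0.56 ± 0.10, YAP1 by 0.51 ± 0.07, WWTR1 by -0.61 ± 0.17 and CAND1 by 0.34 ± 0.07. EZH2 (-0.03 ± 0.08, edgeR adjusted p = 0.730), KCTD5 (0.15 ± 0.11, adjusted p = 0.238) and FOSL1 (-0.19 ± 0.17, adjusted p = 0.345) were not called. With library size alone EZH2 was called lower (-0.22, adjusted p = 0.0231) and CAND1 was not called (0.16, adjusted p = 0.0641).

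The differences were not spread evenly over the chromosomes. On chromosome 14, 66.1% of 487 tested genes were lower in PC9 and 17.0% higher, beside 32.5% and 35% of all genes. In 40.7% all 3 PC9 libraries lay below all 9 others, beside 13.8% of all genes. The median log2 difference was -0.77. The median was -0.59 against HCC827, -0.69 against H1975 and -1.13 against HCC2935, and -0.96 with library size alone. By windows of 20 Mb, it was -1.03 between 20 and 40 Mb (140 genes, 108 of them lower), -1.17 between 40 and 60 Mb (76 genes, 69 lower), -0.34 between 60 and 80 Mb (140 genes, 69 lower), -1.04 between 80 and 100 Mb (70 genes, 57 lower) and 0.11 beyond 100 Mb (61 genes, 19 lower). The lower level was thus not even along the chromosome, and ended before its far end. Of the genes named above, NKX2-1 and SFTA3 lie between 20 and 40 Mb, IFI27 lies between 80 and 100 Mb, and AHNAK2 lies beyond 100 Mb. Chromosome 13 went the other way, with 54.2% of 238 genes higher and 10.9% lower and a median of 0.40. That median fell to 0.22 with library size alone and to 0.13 on log2 TPM. It was 0.21, 0.62 and 0.45 against HCC827, H1975 and HCC2935. Chromosome 7, where EGFR and MET lie, had 49.6% of 722 genes lower and a median of -0.37, or -0.09 against HCC827, -0.36 against H1975 and -0.56 against HCC2935. DNA copy number was not measured.

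**Figure D3:**
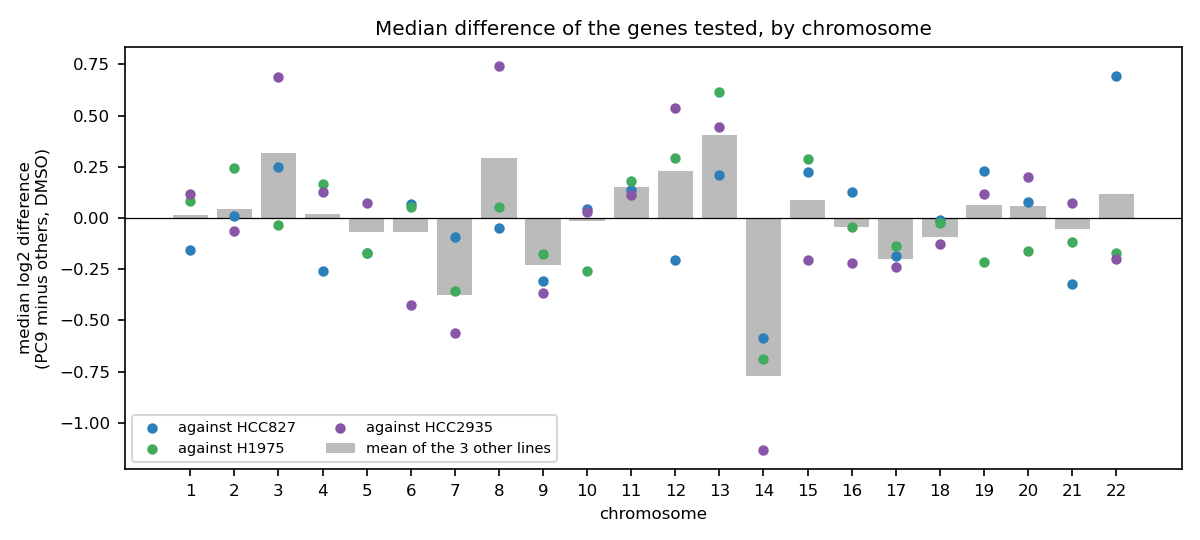
Median log2 difference of the tested genes of each autosome (x axis) between PC9 and the mean of the 3 other lines under DMSO (grey bars) and between PC9 and each single line (points). Chromosome 14 has the lowest bar, at -0.77, with all 3 points below 0, and chromosome 13 the highest, at 0.40.

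In the other 4 arms, whose libraries took no part in the DMSO comparison, most of these differences were met again. With acute osimertinib 10759 genes (68.6%) were called between PC9 and the other lines, 35.8% of all tested genes higher and 32.8% lower in PC9. In DTPs the count was 10513 (67%), with 34.6% higher and 32.4% lower. After the short washout it was 10852 (69.3%), with 35.4% higher and 33.9% lower, and after the long washout 10280 (65.4%), with 34.5% higher and 30.9% lower. Of the genes called under DMSO and tested in an arm, 7720 of 10215 (75.6%) were called in the same direction with acute osimertinib and 455 in the opposite one. The same direction was found for 6817 of 10208 (66.8%) in DTPs, with 827 opposite, for 7333 of 10211 (71.8%) after the short washout, with 654 opposite, and for 7666 of 10221 (75%) after the long washout, with 324 opposite. The long washout lasted a different time in each line. The chromosome 14 median stayed between -0.69 and -0.61 in these arms, and that of chromosome 13 between 0.32 and 0.52.

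NRF2 targets kept their position in all arms, with 23 or 24 of 26 or 27 higher and medians of 1.30 to 1.76. Cancer-testis genes did too, with 12 higher in each arm. The mean of MAGEA3 in PC9 lay between 316 and 379.5 CPM over the 4 arms, and that of the other lines was at most 0.673 CPM. Interferon-stimulated genes did not. With acute osimertinib 27 of 30 were lower and 1 higher in PC9 (median -1.77), in DTPs 9 were lower and 10 higher (median 0.03), after the short washout 6 were lower and 13 higher (median 0.26), and after the long washout 14 were lower and none higher (median -0.72). As a mean over the list of log2(CPM + 1), PC9 had 1.78 ± 0.08 (SD, n = 3) under DMSO, 2.78 ± 0.06 with acute osimertinib, 3.96 ± 0.11 in DTPs and 4.16 ± 0.14 after the short washout. After the long washout its replicates had 2.91, 2.51 and 4.29, so that one library stood apart from the others. From DMSO to DTPs the same mean went from 3.61 ± 0.25 to 4.59 ± 0.33 in HCC827, from 4.40 ± 0.41 to 3.86 ± 0.06 in H1975 and from 3.83 ± 0.36 to 3.66 ± 0.14 in HCC2935. IFI44, for example, differed by -7.40 under DMSO, -4.12 with acute osimertinib and -0.08 in DTPs. Whether the difference between lines itself changed from arm to arm was not tested.

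Epithelial genes, balanced under DMSO (median 0.31), were mostly higher in PC9 in these arms. With acute osimertinib 16 of 22 were higher and 1 lower (median 0.93), and in DTPs 21 of 22 were higher and none lower (median 2.26). The list's mean level was 6.27 ± 0.03 under DMSO and 6.93 ± 0.02 in DTPs in PC9, and 6.78 ± 0.05 and 6.41 ± 0.04 in HCC2935. It was 6.50 ± 0.14 and 5.21 ± 0.58 in HCC827 and 4.84 ± 0.62 and 3.12 ± 0.13 in H1975. In H1975, replicate 2 had 4.14 under DMSO against 5.33 and 5.04. AXL, at 2.39 under DMSO, differed by 0.17 in DTPs, and class I genes had a median of -0.44 in DTPs, with 9 lower and 4 higher.

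**Figure D4:**
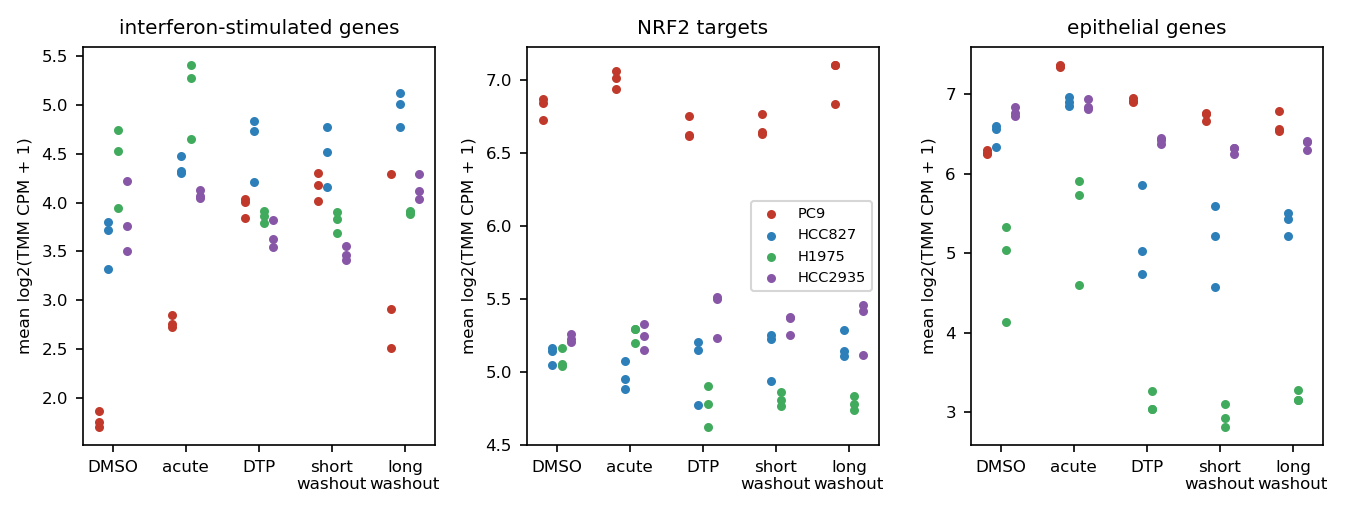
Mean of log2(TMM CPM + 1) over the members of 3 gene lists (y axis) in each library of the 5 arms (x axis), with 1 point per library and a colour per line; the y axes do not start at 0. PC9 lies lowest for interferon-stimulated genes under DMSO, at 1.71 to 1.87, and among the other lines in DTPs, while it lies highest for NRF2 targets in every arm, at 6.62 or more.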

How the data were processed

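Poly(A) RNA of 60 cultures was sequenced with paired ends, per the labels. The submitters' processing notes name HISAT2 2.1.0, Salmon 0.8.2 and hg38, without their roles. The annotation and any use of strand are not given in the sources used here. The authors deposited estimated counts for 19712 gene symbols, not normalized between libraries, beside a table of log2 TPM to which they had added 0.01 before the logarithm. For each gene and library the deposited estimated counts were a fixed multiple of TPM, as counts rebuilt from length-scaled abundances are. Hyphens are written as points in 265 symbols. Such counts shift with the split of reads between copies of a gene and between transcripts, and without strand a gene and an antisense partner cannot be told apart.

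The estimated counts were rounded and fitted with edgeR 4.0.16 (R 4.3.3) on the 12 DMSO libraries, with TMM scaling, filterByExpr by group and the quasi-likelihood F-test of PC9 minus the mean of the other lines, two-sided and without covariates, since no model for a comparison of lines is stated. Benjamini-Hochberg adjustment ran over all 15214 genes tested, and a gene was called at an adjusted p under 0.05. Each other arm was tested in the same way. A fitted difference against a group at 0 depends on the prior count, so levels, or a bound set at 3 counts per library, are given instead. In simulated data, each of 14952 genes had the same mean in all lines, taken from the real libraries. Only 200 genes, none of them at low counts, were then changed in PC9. Of those changed 2-fold 76% were recovered and of those changed 1.5-fold 42%, and 4.84% of calls were false. Far more genes differ between the real lines, so the share of false calls among the real calls cannot be read from this. Bounds cover counting error only.

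Named genes are the 12 highest and 12 lowest differences among called genes without overlap between groups and with at least 5 CPM in PC9 or in each other line, the 6 highest and 6 lowest with at least 100 CPM, up to 4 members of each of 27 lists, and the genes the study singled out. Further list members, and the genes silent in PC9 by count, were named after their values were seen. The comparison, the lists and the members were chosen with earlier results of these data known. Positions come from GENCODE release 29 (19607 genes matched by symbol) and promoters from RefSeq (GRCh38.p14, 11865 tested genes matched).

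As alternatives, the whole fit and test were replaced by those of DESeq2 1.42.0, or the normalization by RLE factors or by library size. The filter was dropped or raised to 10 counts in each library, and limma 3.58.1 was run on the deposited log2 TPM. The replicate number was added as a block, the threshold was set to 0.01, and libraries were thinned to 19.7 M counts. The line was taken as the unit, with limma on the mean log2 CPM of each line. Each other line and each library was left out, and all 60 libraries were fitted together. Python 3.11.15 with numpy 2.4.6, pandas 2.3.3 and matplotlib 3.10.9 was used for tables and plots. Some genes are not reported here.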

Additional observations from a re-analysis of the deposited data

Results flagged for a closer look

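HBEGF and ANKRD1 had all 3 PC9 libraries above all 9 others under DMSO and below all 9 in some other arms, namely those given here. HBEGF differed by 2.46 (log2) under DMSO, by -2.15 in DTPs, by -1.04 after the short washout and by -2.08 after the long washout. Its mean level in PC9 was 59.6 CPM under DMSO and 12.1 CPM in DTPs, and in HCC827 7.48 and 93.6 CPM. ANKRD1, a target gene of YAP, differed by 1.60 under DMSO, where PC9 had 40.9 to 48.0 CPM and replicate 2 of H1975 40.6 CPM, by -4.76 with acute osimertinib, by -3.05 in DTPs, by -2.13 after the short washout and by -2.66 after the long washout. Its mean level in PC9 was 40.7 CPM in DTPs, against 411 in HCC827, 242 in H1975 and 388 in HCC2935. The difference between arms was not tested.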

How the results depend on the processing

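With the cell line as the unit, limma called 0 genes under DMSO, 0 higher, 0 lower and 0 of at least 2-fold. This fit has PC9 as 1 sample against 3, and it called 0 genes in each other arm, with 0 called again in the same direction. With 1 PC9 line this fit has little power to call any gene, and each line being 1 line limits the calls above to these 4 lines. The number called was 10492 with DESeq2, 10353 with library size alone, 10564 by limma on log2 TPM, 8590 at a threshold of 0.01 and 9911 with libraries thinned to 19.7 M counts. With at least 10 counts in every library, which drops genes silent in a line, 2581 genes were called and at least 2-fold, beside 4623. All 3 PC9 libraries lay above all others in 1487 genes on log2 TPM, beside 2467, and below in 3257, beside 2096. Without HCC2935 they lay below in 3215. Leaving out each library in turn gave 9263 to 10615 calls under DMSO, 4816 to 5492 higher, 4428 to 5123 lower and 4386 to 4767 of at least 2-fold. By line it gave 8977 to 9973 against HCC827, 8976 to 10285 against H1975 and 9840 to 10884 against HCC2935.

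The sign of 5 named differences turned when a line was left out. Without HCC827, EREG went to 0.015, HNF4G to 1.56 and FOSL1 to 0.38. Without HCC2935, CDKN2B went to -0.98, and without H1975 EGFR went to -0.30. Calls on MUC2, MUC13, HNF4G and ITGB3 were lost when 1 library was left out, among them MUC2 without replicate 1 of HCC827 (edgeR adjusted p = 0.9998) or of H1975 (0.0766), MUC13 without replicate 2 of HCC2935 and ITGB3 without its replicate 3. The cause was not tested. Under a replicate block the count was 10148, of which 10044 were also called without the block, and HNF4G lost its call (edgeR adjusted p = 0.0537). Same-numbered libraries had correlations of -0.21 to 0.08 over 9 pairs and the same number was the closest in 1 of 9, so that the numbers were not taken to pair the libraries.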
